A study of Mus musculus with 14 samples.

Results

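The alcohol-fed group is made up of 7 of the 14 two-colour arrays, chosen by their labels (Alcohol Fed 01 to 07), each with the RNA of fetuses whose mothers were given ethanol. All animals were C57Bl6 mice. The mothers were fed freely until gestational day 14 and then exposed to ethanol, at about 180 to 200 mg/dl, from gestational day 15 to 18. Fetuses were taken by Caesarean section on gestational day 19. On every array the sample was labelled with Cy5 and set against 1 pool labelled with Cy3, total RNA from 7 animals whose diet was never restricted (ad libitum), so each value compares the alcohol-fed fetuses with untreated ones. The other 7 arrays set pair-fed fetuses, whose mothers received maltose dextrin in place of ethanol, against the same pool. The protocol gives 4 days of exposure and the titles give 5 days, and 1 label calls the pool a weight-matched control. The sources used here give neither the tissue nor whether the 7 samples came from separate litters. The p-values thus cover only how these samples vary, and part of that may be technical.

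Ethanol crosses the placenta and reaches the fetus at close to the maternal concentration. The fetal liver breaks it down slowly, through alcohol dehydrogenase and then aldehyde dehydrogenase, and it is known to act on growth, on cell adhesion and on the development of neurons. The last days of mouse gestation are a time of rapid growth of the brain and of maturation of lung, liver and kidney. Because ethanol supplies calories and animals given it eat less, a pair-fed group is the usual control for the change in diet.

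The array held 21582 probes, and 21147 of them had a value on at least 4 of the 7 alcohol-fed arrays. Values are log2 ratios with each array's median removed, so 0 is the middle probe of an array, 1 is 2-fold above it and -1 is 2-fold below. The labels and the design text list the sample first and the pool second. The direction, sample over pool, is likely on that basis but is not stated. Because no array had its dyes swapped, an effect of the dyes on a probe cannot be told apart from a difference between fetuses and pool. The pool also counts as 1 control sample, and its own spread enters no test. Brightness is not known, so no gene's level can be set against another's, and the tissue could not be checked by which markers were present.

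Pairs of alcohol-fed arrays had correlations across probes of r = 0.354 to 0.692, with a median of 0.49 over 21 pairs. Pairs of 1 alcohol-fed and 1 pair-fed array had r = 0.3 to 0.607, with a median of 0.451. Between 2.57% and 7.91% of an array's values were exact zeros or equal to the table's maximum, and these placeholders were left out. Array 6 had the most. This share was 4.2% ± 1.77 (SD, n = 7) on alcohol-fed and 6.38% ± 4.22 (SD, n = 7) on pair-fed arrays, with p = 0.232 in a two-sided exact permutation test (adjusted over 3 such measures, 0.657).

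Much of the array stood away from the pool, more of it below than above in the likely direction of the ratio. In the limma fit of the 7 arrays, 5342 probes (25.3% of those tested) passed an adjusted p under 0.05, of which 1641 were higher and 3701 lower in the alcohol-fed fetuses. If the ratio runs the other way, pool over sample, every sign turns, with 3701 higher and 1641 lower. The number called higher depended on single arrays and fell to 1036 without array 2, 920 without array 3, 981 without array 4, 1077 without array 5 and 1091 without array 7. The text below therefore counts a probe as held only where it also passed, in the same direction, in each of the 7 fits that left out 1 array. Held probes numbered 612 on the higher side (2.89%) and 2395 on the lower side (11.3%). Higher probes made up 20.4% of the held, against 32.2% with the values as deposited and 35.1% after quantile normalization. With the ratio turned these shares would be 79.6%, 67.8% and 64.9%. The median over all probes was -0.003 here, and 0.126 and 0.129 under those 2 scalings.

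**Figure D1:**
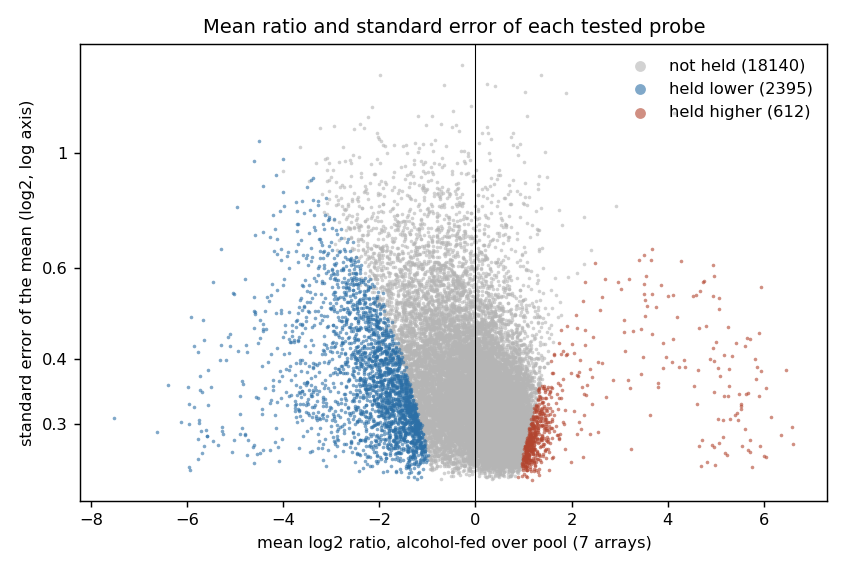
Mean log2 ratio of alcohol-fed fetuses over the pool (horizontal) and its standard error (vertical, log axis) for each of 21147 tested probes. The 2395 probes held lower (blue) spread from -0.99 to -7.52. The 612 held higher (red) have a median of 1.33, with 156 at 4-fold or more, among them 87 at 16-fold or more.

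The held probes were chosen for standing apart from 0 in the same direction in every fit, so their sizes and signs are a description. The median size was 1.33 on the log2 scale for probes held higher and 2.02 for those held lower, against 0.613 for all tested probes. At least 4-fold differences were seen in 156 of the 612 higher and 1221 of the 2395 lower probes, and at least 16-fold in 87 and 135. Among the held probes, 93% of the higher and 92% of the lower had the same sign on every array with a value, against 23.9% of all tested probes. The rule for held calls favours such agreement, so this contrast is built into the choice. As these are bulk samples, fewer cells of a type and less RNA per cell cannot be told apart.

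Probes with missing values were more often lower. Where all 7 arrays gave a value, 3.29% of probes were held higher and 10% held lower, and their median ratio was 0.1. With 6 values these shares were 0.493% and 18.7%, with 5 values 0.319% and 22.4%, and with 4 values 0.804% and 16.9%. The median ratio of probes with 4 values was -1.31. The part of the missing values in the balance of the calls was not tested.

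Genes carried by more than 1 probe give a second measurement of the same transcript on the same arrays. For 881 genes with 2 probes, the means of the 2 probes correlated at r = 0.0405 across genes, which are not independent replicates, and 51.5% of the pairs lay on the same side of the median. Of 197 probes held lower in such genes, 40 had their other probe held lower too (20.3%), against 11.3% of all tested probes. A gene with both probes held lower enters this count once from each probe, so the 40 are not separate genes. The median was -2.01 for the held probes and -0.02 for their partners. Of 50 probes held higher, 0 had their partner held higher, 4 had it held lower, and the partners' median was 0.01. With 2.89% of all tested probes held higher, 50 partners are too few to show much. A partner had the sign of the held probe in 50% of the higher and 50.3% of the lower cases, and 50.4% of all named probes had a ratio above 0. A named gene with 1 probe therefore rests on a measurement that a second probe, where there was one, mostly did not repeat. Whether the values and the probe names of the deposited table are in step was not tested, and every gene name and family count given here assumes that they are.

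**Figure D2:**
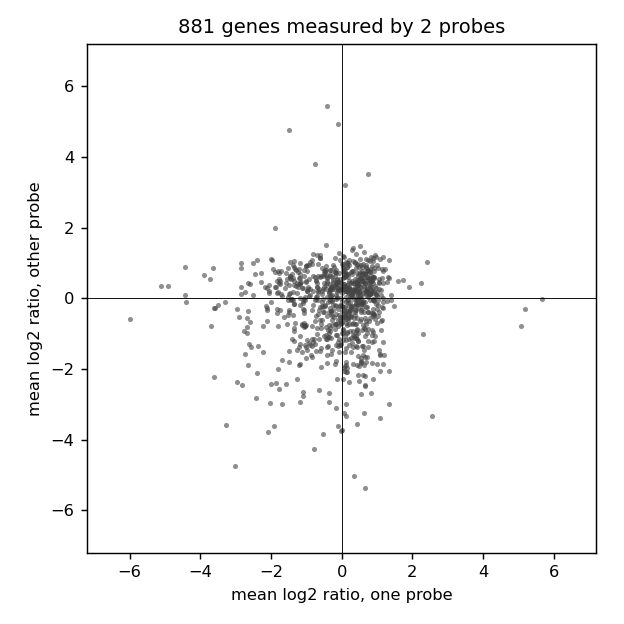
Mean log2 ratio over the pool of one probe (horizontal) against the other probe (vertical) for the 881 genes measured by 2 probes. The points form no line (r = 0.0405), and those far from 0 on one axis mostly lie near 0 on the other, except for a few genes low on both.

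Among 1015 genes with several tested probes, 21 had every probe held lower and 0 had every probe held higher. In the plain fit of 7 arrays, without the demand that calls survive leaving out an array, 32 had every probe lower and 8 every probe higher. A further 7 genes had probes held in opposite directions, 262 had some probes held and 725 had none. Of the 21 genes, the 8 whose nearer probe lay farthest below 0 were Coch, Smcp, Usp42, Pank1, Epn2, Smr3a, Rhobtb3 and Tex23. The window around the start site, 250 bases before it and 50 after, is shown for the first of these that the RefSeq promoter table of GRCm38.p6 holds. Every tested probe of these genes was held lower. How many of the 21 would arise between probes that do not agree was not tested.

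Coch (chr12:51593091-51593390, + strand): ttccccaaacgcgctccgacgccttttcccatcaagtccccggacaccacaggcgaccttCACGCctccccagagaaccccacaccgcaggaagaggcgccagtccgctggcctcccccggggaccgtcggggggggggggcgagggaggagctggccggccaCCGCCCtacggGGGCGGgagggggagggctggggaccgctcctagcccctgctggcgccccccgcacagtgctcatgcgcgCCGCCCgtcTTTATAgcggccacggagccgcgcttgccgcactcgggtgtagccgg
Smcp (chr3:92589024-92589323, - strand): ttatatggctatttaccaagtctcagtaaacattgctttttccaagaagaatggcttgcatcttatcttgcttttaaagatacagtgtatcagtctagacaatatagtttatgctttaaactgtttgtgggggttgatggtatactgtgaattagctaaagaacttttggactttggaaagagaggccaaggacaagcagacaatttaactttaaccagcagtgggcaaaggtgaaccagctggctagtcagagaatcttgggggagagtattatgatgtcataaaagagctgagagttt
Pank1 (chr19:34879406-34879705, - strand): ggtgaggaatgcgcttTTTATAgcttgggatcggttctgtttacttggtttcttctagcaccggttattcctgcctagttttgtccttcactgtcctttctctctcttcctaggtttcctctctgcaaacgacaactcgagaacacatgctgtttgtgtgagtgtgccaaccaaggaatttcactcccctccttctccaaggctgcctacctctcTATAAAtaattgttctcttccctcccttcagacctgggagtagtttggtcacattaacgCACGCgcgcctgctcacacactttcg

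Capitals mark matches, on either strand, to 7 short motifs. These are the TATA box with the letters TATAAA, the CCAAT box, and the GC box with the letters GGGCGG. Further motifs are the core of the aryl hydrocarbon receptor site, which reads GCGTG, and the E-box, which reads CACGTG and can overlap that core. The last are the core of the antioxidant element, TGACNNNGC in letters, and part of the cAMP element, in letters TGACGT. The window of Coch was 73.7% G and C with 3 GC boxes and 1 TATA box, and that of Smcp was 38% G and C with no match to any of these. The window of Pank1 held 2 TATA boxes and 1 aryl hydrocarbon receptor core. A match is a description of letters only.

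Coch encodes cochlin, an extracellular matrix protein of the inner ear. Its first probe ran from -3.91 to -2.51 on the 7 arrays with a median of -3.35, a mean of -3.28 ± 0.27 (SE; adjusted p = 8.96e-06). The second ran from -4.65 to -2.32 with a median of -3.65, a mean of -3.58 ± 0.34 (SE; adjusted p = 2.97e-05). All 14 values of the gene were thus below 0 by more than 4-fold. The pair-fed means were -3.19 and -3.98, close to those of the alcohol-fed arrays.

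Smcp encodes a cysteine-rich protein of the sperm mitochondrial capsule. Its first probe ran from -3.84 to -1.75 with a median of -3.33 and a mean of -3.02 ± 0.30 (SE; adjusted p = 3.73e-05). The second ran from -6.41 to -2.96 with a median of -4.30 and a mean of -4.75 ± 0.41 (SE; adjusted p = 1.4e-05). Both probes were low on every array, by unequal amounts. Tex23, another gene named for its expression in testis, stood at -2.03 ± 0.47 and -2.96 ± 0.31.

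Pank1 encodes pantothenate kinase, which starts the synthesis of coenzyme A. Its first probe ran from -4.49 to -0.87 on 7 arrays, a mean of -2.41 ± 0.40 (SE; adjusted p = 0.00161), and its second from -5.12 to -1.17 on 6 arrays, a mean of -2.83 ± 0.45 (SE; adjusted p = 0.00174). The lowest value of both probes was that of array 2. Usp42, a ubiquitin-specific protease, stood at -2.82 ± 0.38 (6 arrays) and -2.44 ± 0.40 (5 arrays). Epn2, an epsin of clathrin-mediated endocytosis, had means of -2.96 ± 0.47 and -2.37 ± 0.39. For the salivary gland gene Smr3a they were -3.62 ± 0.50 and -2.23 ± 0.27, and for Rhobtb3 -2.07 ± 0.27 and -3.78 ± 0.43. None of these probes had a value above 0 on an alcohol-fed array.

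**Figure D3:**
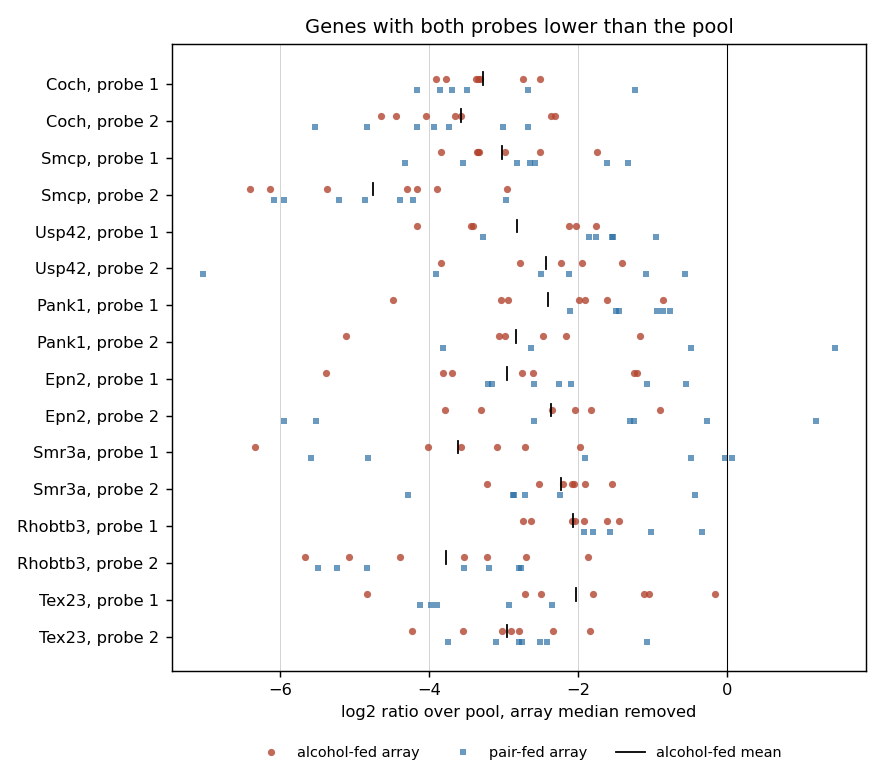
Log2 ratio over the pool (horizontal) of both probes of 8 of the 21 genes held lower by every probe, those farthest below 0, with 1 dot per alcohol-fed array, 1 square per pair-fed array and a bar at the alcohol-fed mean. All alcohol-fed values lie below 0. The pair-fed values overlap them but reach above 0 for Pank1 (up to 1.44), Epn2 (up to 1.19) and Smr3a (up to 0.06).

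Genes whose probes were held in opposite directions show the same limit from the other side. One probe of Ttc3, a ubiquitin ligase gene of the Down syndrome region, ran from 1.29 to 4.69 with a mean of 2.55 ± 0.40 (SE; adjusted p = 0.0011). Its other probe ran from -4.38 to -2.20 with a mean of -3.32 ± 0.31 (SE; adjusted p = 2.35e-05). The values of the 2 probes did not overlap on any array, so no direction can be given for the gene. For Rlim, a ubiquitin ligase that acts in X inactivation, the probes stood at 2.00 ± 0.43 and -1.88 ± 0.40. For Ascc2, of the activating signal cointegrator complex, they stood at 1.33 ± 0.35 and -3.0 ± 0.50. The antigen receptor segments Tcrb-V8.2 (5.29 ± 0.38 and -2.71 ± 0.34) and Igkv4-72 (1.42 ± 0.29 and -2.53 ± 0.58) had 149 and 16 further probes under the same symbol, and such near-identical segments can share signal.

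The probes with the smallest p had means from 41.2-fold (Gpr85) to 184-fold (Vipr2) away from the pool. The 8 on the higher side belonged to Prom2, Krtap4-13, Wipf2, Prodh2, Sertad3, Chsy3 and 2 RIKEN clones, and the 8 on the lower side to Vipr2, Wnk2, Stk24, Morc4, Bicc1, Cisd1, Gpr85 and 1 RIKEN clone. Only 1 of the 16 genes, Gpr85, had another tested probe, and that one stood at 0.66. No gene had every probe held higher, so for the higher side the windows of the first 3 of these genes with a name other than a clone number are shown, with the motifs marked as before.

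Prom2 (chr2:127541368-127541667, - strand): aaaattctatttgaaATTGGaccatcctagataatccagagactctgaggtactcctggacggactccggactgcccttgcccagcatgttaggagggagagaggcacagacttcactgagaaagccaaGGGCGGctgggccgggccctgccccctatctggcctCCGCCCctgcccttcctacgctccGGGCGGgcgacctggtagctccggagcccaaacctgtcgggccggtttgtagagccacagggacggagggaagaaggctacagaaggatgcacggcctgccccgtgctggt
Krtap4-13 (chr11:99809847-99810146, - strand): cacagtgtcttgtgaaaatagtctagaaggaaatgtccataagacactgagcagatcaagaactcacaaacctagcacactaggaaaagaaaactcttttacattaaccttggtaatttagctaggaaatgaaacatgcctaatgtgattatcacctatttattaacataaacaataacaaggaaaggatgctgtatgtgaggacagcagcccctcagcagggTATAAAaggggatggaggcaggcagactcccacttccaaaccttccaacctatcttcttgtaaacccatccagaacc
Wipf2 (chr11:98863348-98863647, + strand): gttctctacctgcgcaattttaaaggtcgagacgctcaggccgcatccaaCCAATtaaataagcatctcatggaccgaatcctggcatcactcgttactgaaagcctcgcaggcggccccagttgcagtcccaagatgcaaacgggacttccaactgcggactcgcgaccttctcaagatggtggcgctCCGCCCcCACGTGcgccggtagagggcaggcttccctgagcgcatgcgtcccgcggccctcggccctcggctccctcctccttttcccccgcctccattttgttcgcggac

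The window of Prom2 held 3 GC boxes and 1 CCAAT box, that of Krtap4-13 only 1 TATA box, and that of Wipf2 1 CCAAT box, 1 GC box and 1 E-box. No motif was common to the 3 windows.

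On the higher side, Prom2 encodes prominin 2, a protein of membrane protrusions in epithelia. Its values ran from 5.12 to 6.13 with a median of 5.84, a mean of 5.75 ± 0.25 (SE), 53.9-fold over the pool (adjusted p = 1.38e-07). Krtap4-13, a keratin-associated protein of hair, ran from 5.40 to 6.57 with a mean of 6.00 ± 0.26 (SE; adjusted p = 1.38e-07). Wipf2, which binds the actin regulator WASP, ran from 5.68 to 7.55 with a mean of 6.60 ± 0.30 (SE; adjusted p = 1.38e-07). All 7 values of each gene were above 5, as the choice by smallest p favours. The proline-metabolism gene Prodh2 stood at 6.35 ± 0.29, the transcriptional regulator Sertad3 at 5.71 ± 0.27 and the chondroitin synthase Chsy3 at 5.67 ± 0.27. The RIKEN clones 1700101O22Rik and 5430403G16Rik had means of 6.62 ± 0.28 and 6.05 ± 0.26.

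On the lower side, Vipr2, a receptor for the neuropeptides VIP and PACAP, had the lowest mean of the array. Its values ran from -8.61 to -6.78 with a median of -7.15, a mean of -7.52 ± 0.31 (SE), 184-fold below the pool (adjusted p = 1.38e-07). Wnk2, a kinase that regulates ion transport, ran from -6.52 to -5.59 with a mean of -5.97 ± 0.25 (SE; adjusted p = 1.38e-07). Stk24, a Ste20-like kinase, ran from -6.50 to -5.27 with a mean of -5.77 ± 0.26 (SE; adjusted p = 1.38e-07). Each of these genes was low on all 7 arrays. The RNA-binding gene Bicc1 stood at -6.14 ± 0.30, Morc4 at -5.70 ± 0.26, the mitochondrial iron-sulphur protein gene Cisd1 at -5.59 ± 0.28, the brain-expressed receptor Gpr85 at -5.37 ± 0.27 and 5730409K12Rik at -5.65 ± 0.27.

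On the pair-fed arrays the means of these 16 probes lay on the same side of the pool. The pair-fed mean was 5.88 for Prom2, 5.32 for Krtap4-13, 5.20 for Wipf2, -7.07 for Vipr2, -6.31 for Wnk2 and -5.81 for Stk24. The widest difference between the groups (alcohol-fed minus pair-fed) was 1.40 ± 0.63 (SE), for Wipf2. None of the 16 passed the test of that difference. The 95% interval of the difference lay within 4-fold either way for 14 of them and within 2-fold for 4.

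**Figure D4:**
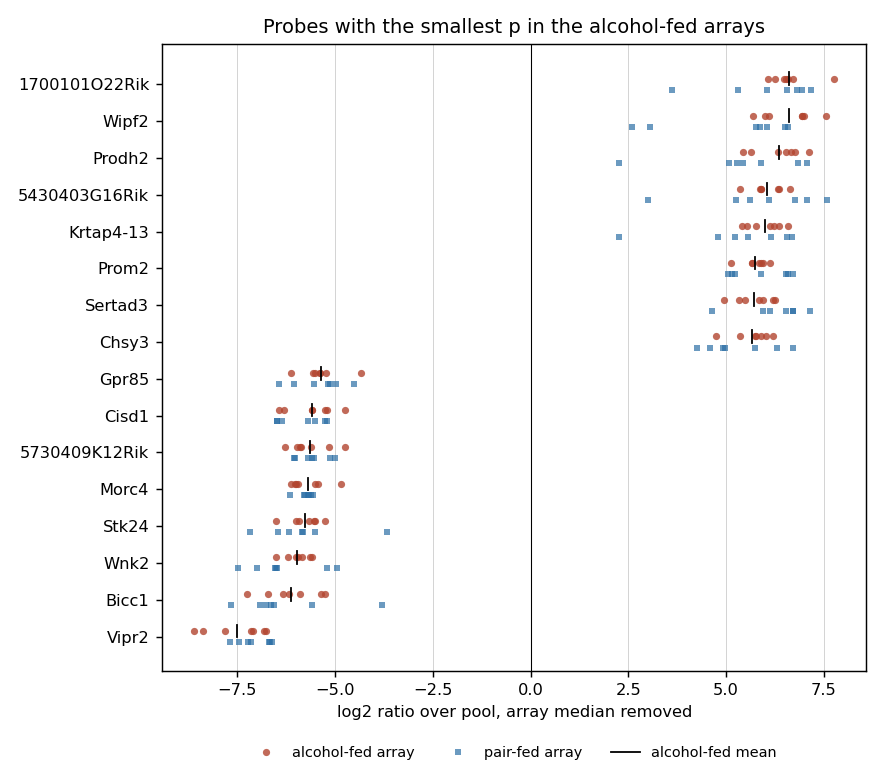
Log2 ratio over the pool (horizontal) of the 16 probes with the smallest p, with 1 dot per alcohol-fed array, 1 square per pair-fed array and a bar at the alcohol-fed mean. Alcohol-fed values lie at 4.75 or more or at -4.34 or less, and pair-fed values lie on the same side, with a few nearer to 0.

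Gene families were read against all 14790 named genes tested, of which 474 had a probe held higher (3.2%) and 1808 a probe held lower (12.2%), with a median ratio of 0.004. The highest shares of lower members were those of aquaporins and of adenylyl cyclases and phosphodiesterases (30% each), claudins (29.6%) and receptors for monoamines and acetylcholine (28.9%). Aminoacyl-tRNA synthetases (0%), mitochondrial ribosomal proteins (2.82%) and forkhead factors (3.03%) had the lowest shares. The lists were made from gene symbols, their counts carry no test of their own, and a family's share rests on the balance of calls given above. For the leading families the count with values as deposited, where 1511 probes rather than 2395 were held lower in all, is given beside the count.

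Receptors for neurotransmitters are described first. Of 38 receptors for dopamine, adrenaline, serotonin and acetylcholine, 0 were held higher and 11 lower (28.9%; 6 with values as deposited), and the family's median was -0.58. Chrng, the gamma subunit of the fetal acetylcholine receptor of muscle, ran from -8.32 to -4.08 with a median of -5.59 and a mean of -5.68 ± 0.48 (SE; adjusted p = 1.05e-05). All 7 arrays were low, and 1 pair-fed array stood at 0.39. Vomeronasal and taste receptors, which detect pheromones and tastants, had 1 member higher and 12 lower of 46 (6 lower as deposited; median -0.63). The sweet and umami receptor subunit Tas1r3 ran from -6.00 to -1.98 with a mean of -4.50 ± 0.44 (SE; adjusted p = 3.51e-05). Its pair-fed mean was -2.77 ± 0.40, a difference of -1.73 ± 0.62 that did not pass.

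Ion channels were less uniform. TRP channels, which open to heat, stretch or chemicals, had 1 member higher and 4 lower of 19 (0 and 3 as deposited), with a median of 0.06, and of -0.01 after scale normalization. Trpv4, an osmosensor, stood at -2.09 ± 0.27 and Trpc5 at 1.20 ± 0.28. Of 28 voltage-gated sodium and calcium channel subunits 0 were higher and 5 lower, Cacna2d1 lowest at -4.61 ± 0.50, and the family's median was 0.03, and -0.04 with placeholders kept. Aquaporins, the water channels, had 0 higher and 3 lower of 10 (1 higher and 2 lower as deposited), with a median of -1.46. Aqp5, of salivary gland and lung, had values on 4 arrays only, from -4.72 to -1.81, with a mean of -3.21 ± 0.51 (SE; adjusted p = 0.00293).

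Cell junctions stood lower than most families. Claudins and other tight junction proteins, which seal epithelia, had 0 members higher and 8 lower of 27 (29.6%; 7 as deposited; median -0.73). Cldn6, a claudin of embryonic epithelia, ran from -4.53 to -2.38 with a mean of -3.48 ± 0.34 (SE; adjusted p = 3.1e-05). Connexins, which join the cytoplasm of neighbouring cells, had 0 higher and 4 lower of 15 (2 as deposited) and a median of -1.04. Gjb1, a connexin of liver and of myelinating cells, ran from -4.97 to -2.33 with a mean of -3.52 ± 0.36 (SE; adjusted p = 4.6e-05). The pair-fed means of these 2 genes were -2.60 and -3.95.

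Among secreted ligands, 0 of 29 fibroblast growth factors and their receptors were higher and 7 lower (2 as deposited; median -0.57). Fgf3, which acts in inner ear development, had values on 5 arrays from -3.90 to -1.31 and a mean of -2.58 ± 0.43 (SE; adjusted p = 0.00285). Of 40 ligands and antagonists of the TGF-beta and BMP families, 1 was higher and 6 lower, also as deposited. The oocyte factor Gdf9 ran from -5.34 to -3.91 with a mean of -4.80 ± 0.29 (SE; adjusted p = 5.03e-07), and Gdf10 (BMP3b) from 3.80 to 6.63 with a mean of 5.25 ± 0.34 (SE; adjusted p = 1.05e-06). These 2 related ligands thus lay at opposite ends of the array. Their receptors and Smads split too, with 2 higher, led by Tgfbr1 at 3.68 ± 0.54, and 3 lower, led by Smad9 at -2.32 ± 0.32, of 18, with 2 and 2 as deposited and after quantile normalization. Neuropeptides and pituitary hormones had 0 higher and 5 lower of 26. Oxytocin (Oxt) stood at -2.75 ± 0.38, against a pair-fed mean of -1.03 ± 0.60.

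Axon guidance genes had members on both sides. Of 28 semaphorins, plexins and neuropilins, 2 were higher and 4 lower (1 and 2 as deposited; median 0.16). Sema6c ran from 3.50 to 6.66 with a mean of 5.00 ± 0.43 (SE; adjusted p = 1.32e-05), and Sema3d from -4.95 to -2.75 with a mean of -3.75 ± 0.33 (SE; adjusted p = 1.4e-05). Of 19 ephrins and Eph receptors, the contact-dependent guidance system, 1 was higher (Epha2, 1.32 ± 0.34) and 2 lower, led by Efnb1 at -2.93 ± 0.32 (0 and 2 as deposited). Netrins, Slits and their receptors had 1 gene on each side of 15 (0 higher and 1 lower as deposited). Neo1 had a mean of 1.60 ± 0.38 with its other probe at 0.49, and Dcc one of -1.66 ± 0.28 with its other probe at 0.71. Neurotrophins, GDNF family ligands and their receptors had 1 lower member of 14, the receptor Ntrk3 at -1.85 ± 0.24, whose other probe stood at 1.01, and 0 were held after quantile normalization. In the Notch pathway, which keeps progenitors undifferentiated, 1 gene was higher and 5 lower of 28 (0 and 1 as deposited). The related Notch target genes Hey1 (1.43 ± 0.35) and Hey2 (-1.85 ± 0.34) stood on opposite sides.

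In the extracellular matrix, 2 of 54 metalloproteinases and inhibitors were higher and 13 lower (24.1%; 10 as deposited; median -0.31). Mmp9, gelatinase B of leukocytes and bone, ran from -7.43 to -3.06 with a median of -4.58 and a mean of -4.78 ± 0.43 (SE; adjusted p = 1.68e-05). The lowest value was that of array 6. Laminins and basement membrane proteins had 1 higher and 4 lower of 23 (1 and 2 as deposited). The higher one, the heparan sulphate proteoglycan Hspg2 (perlecan), ran from 4.64 to 7.02 with a mean of 5.52 ± 0.32 (SE; adjusted p = 4.78e-07), and its pair-fed mean was 6.48.

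Of the signalling enzymes, adenylyl cyclases and phosphodiesterases, which make and break down cyclic nucleotides, had 1 member higher and 9 lower of 30 (30%; 6 lower as deposited; median -0.79). The cAMP phosphodiesterase Pde4a ran from -6.08 to -2.60 with a mean of -3.87 ± 0.39 (SE; adjusted p = 4.2e-05), and the cyclase Adcy9 stood at 1.20 ± 0.30. The MAP kinase cascade, by contrast in its count, had 0 higher and 1 lower of 30 (3.33%), the stress kinase Mapk9 (JNK2) at -2.08 ± 0.34. Of 34 heterotrimeric G protein subunits 0 were higher and 5 lower (1 as deposited), with Gnb1 lowest at -2.69 ± 0.35. The RGS proteins, which switch G proteins off, had Rgs20 at 4.74 ± 0.56 and Rgs6 at -3.28 ± 0.60 on 5 arrays. The phosphatase-like Ptprn of secretory granules stood at 5.16 ± 0.31. No difference in response between these families was tested.

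Transcription factors differed by class in their counts. Nuclear hormone receptors, outside the retinoid receptors, had 0 held higher and 9 lower of 34 (26.5%; 1 higher and 5 lower as deposited; median -0.59). The clock-linked Nr1d2 spread widely, from -7.00 to 0.09 on 6 arrays, with a mean of -3.36 ± 0.76 (SE; adjusted p = 0.0105). Factors of the Pax and Eya families and their partners had 0 higher and 4 lower of 19, the eye and limb cofactor gene Dach1 lowest at -3.50 ± 0.36. LIM, Nkx, Dlx, Msx and Pou homeobox genes had 3 higher and 9 lower of 64 (2 and 5 as deposited), among them Lmx1b of the limb and midbrain at 1.20 ± 0.28 and the lymphoid Pou2f2 at -3.64 ± 0.68 on 5 arrays, with its other probe at 0.86. Forkhead factors had 1 held member of 33, Foxa1 of endoderm at -2.23 ± 0.44 on 5 arrays, with its other probe at -0.77. Counts were 1 higher and 1 lower as deposited, 2 and 1 after quantile normalization, and 0 and 0 with placeholders kept.

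The shares of chromatin genes held lower were near the 12.2% of all named genes, at 9.26% for histone-modifying enzymes and 8.57% for remodelling subunits. For DNA repair genes the share was 18.2%. These gaps rest on few genes and were not tested. Of 54 histone-modifying enzymes 2 were higher and 5 lower, and of 35 chromatin remodelling subunits 2 and 3. As deposited these counts were 3 and 1, and 3 and 2, and after quantile normalization 6 and 4, and 3 and 3. Among them were the class IIa deacetylase Hdac9 at 2.97 ± 0.56, the remodeller Chd2 at 3.21 ± 0.35 with its other probe at 0.09, and the BAF subunit Smarcd2 at -2.88 ± 0.30. DNA repair genes had 1 higher and 10 lower of 55 (18.2%; 0 and 7 as deposited), with a median of 0.02, and of -0.02 after scale normalization. Ogg1, which removes oxidised guanine, had values on 5 arrays from -3.88 to -1.73 and a mean of -2.85 ± 0.41 (SE; adjusted p = 0.00129), against a pair-fed mean of -0.72 ± 0.50. That difference of -2.13 ± 0.72 did not pass after adjustment.

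For the machinery of gene expression, the shares held lower are set beside the 12.2% of all named genes. Splicing factors (10.9%) stood near it. Aminoacyl-tRNA synthetases (0%), mitochondrial ribosomal proteins (2.82%) and translation factors (7.27%) were below it, and nucleoporins (18.9%) above it. Each share rests on few genes and was not tested. Mitochondrial ribosomal proteins had 1 higher and 2 lower of 71 (2.82% lower; median 0.21). Counts were 3 and 2 as deposited, 5 and 2 after quantile and 2 and 2 after scale normalization. Splicing factors and hnRNPs had 2 higher and 6 lower of 55 (1 and 2 as deposited), with a median of 0.47. Aminoacyl-tRNA synthetases, which charge tRNAs with amino acids, had 2 higher and 0 lower of 26 (1 higher as deposited). The mitochondrial valine enzyme Vars2 ran from 0.85 to 4.63 with a mean of 2.05 ± 0.41 (SE; adjusted p = 0.00499), the highest value on array 4. Translation factors had 5 higher and 4 lower of 55, with Eif5a from 0.77 to 5.09 and a mean of 3.10 ± 0.48 (SE; adjusted p = 0.00104). Eef1e1, a scaffold protein of the synthetase complex, was far below at -5.56 ± 0.38 (SE; adjusted p = 1.89e-06). With placeholders kept, the translation factors had 3 higher and 4 lower. Nucleoporins and nuclear transport receptors had 1 higher and 7 lower of 37 (18.9%; 1 and 3 as deposited).

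Protein turnover had single genes far out. Cullins, F-box and SOCS proteins had 2 higher and 10 lower of 59 (2 and 5 as deposited). Socs4, a suppressor of cytokine signalling, ran from -7.59 to -3.64 with a mean of -5.65 ± 0.44 (SE; adjusted p = 5.25e-06). The ubiquitin-conjugating enzyme Ube2r2 ran from 4.26 to 7.04 with a mean of 5.87 ± 0.39 (SE; adjusted p = 1.26e-06). Its pair-fed values had a wider range, from -0.66 to 7.88. Autophagy and lysosomal genes had 1 member held on each side of 31, Atg2b at 1.42 ± 0.32 and the protease Ctsd at -1.16 ± 0.27. As deposited 1 was higher and 0 lower, and after quantile normalization 2 and 1.

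In membrane traffic, Rab GTPases, which label vesicles, had 1 higher and 4 lower of 48 (2 and 3 as deposited). Rab22a of endosomes ran from -4.23 to -2.79 with a mean of -3.67 ± 0.27 (SE; adjusted p = 3.41e-06). Vacuolar ATPase subunits, the proton pumps of lysosomes, had 0 higher and 4 lower of 19 (2 lower as deposited), the accessory subunit Atp6ap2 at -3.70 ± 0.43. In the cytoskeleton, tubulins and actins had 1 higher and 2 lower of 40 (1 and 1 as deposited). The testis actin-like Actl7a kept to a narrow range, from 0.74 to 1.28, with a mean of 1.08 ± 0.24 (SE; adjusted p = 0.00805), and the skeletal muscle actin Acta1 stood at -2.03 ± 0.32.

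Metabolic families had few held members, with shares near the 12.2% of all named genes held lower. These were 13.3% of carbonic anhydrases, 8.89% of phase II enzymes, 10.3% of ABC transporters and 15.4% of circadian genes. Of 15 carbonic anhydrases 0 were higher and 2 lower, led by the mitochondrial Car5b, which ran from -8.00 to -5.20 with a mean of -5.99 ± 0.35 (SE; adjusted p = 4.93e-07) while its other probe stood at -0.57. Phase II conjugating enzymes, which make compounds soluble for excretion, had 1 higher and 4 lower of 45, with the sulphotransferases Sult1c1 at 1.27 ± 0.29 and Sult1d1 at -2.84 ± 0.65. The lipid transporter Abca3 of lung surfactant stood at 4.76 ± 0.57 with its other probe at -1.49. Of 13 circadian genes 2 were lower (1 as deposited), Timeless lowest at -3.49 ± 0.32.

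Immune and plasma genes were mostly lower where held, as were all named genes (474 higher and 1808 lower of 14790). The shares lower were 17% for complement and coagulation genes, 22.6% for major histocompatibility genes and 14.7% for CD antigens, against 12.2% of all. Complement and coagulation genes had 0 higher and 8 lower of 47 (4 as deposited; median -0.32), led by the receptor C3ar1 at -3.03 ± 0.51. Major histocompatibility genes, which present antigens, had 2 higher and 7 lower of 31 (2 and 4 as deposited). The probes of H2-T3 and H2-Q7 stood at 2.20 ± 0.29 and -3.06 ± 0.40, and members of this family are alike enough in sequence that a probe may read several. CD antigens had 1 higher, Cd200 at 1.24 ± 0.25, and 11 lower of 75 (3 and 8 as deposited). The complement regulator Cd55 stood at -4.14 ± 0.64, with its 2 other probes at -2.70 and -0.42.

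Some genes known from 1 organ stood far from the pool, as did single members of other families. Testis kinases and spermatid genes had 2 higher and 13 lower of 51 (25.5%; 3 higher and 9 lower as deposited; median -0.25). Tssk3, a kinase of spermatids, ran from -7.32 to -4.11 with a mean of -5.78 ± 0.41 (SE; adjusted p = 2.79e-06). Spata6 of the sperm neck stood at 4.94 ± 0.53 with its other probe at -0.09. Of 10 myelin and oligodendrocyte genes 1 was lower (0 as deposited; median -0.31), Mal at -1.48 ± 0.34. Crystallins, the proteins of the lens, had 1 higher and 3 lower of 18 (median 0.25). Cryba2 ran from -5.15 to -3.62 with a mean of -4.62 ± 0.27 (SE; adjusted p = 4.93e-07), and Crygb from 2.47 to 4.01 with a mean of 3.24 ± 0.27 (SE; adjusted p = 9.65e-06).

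**Figure D5:**
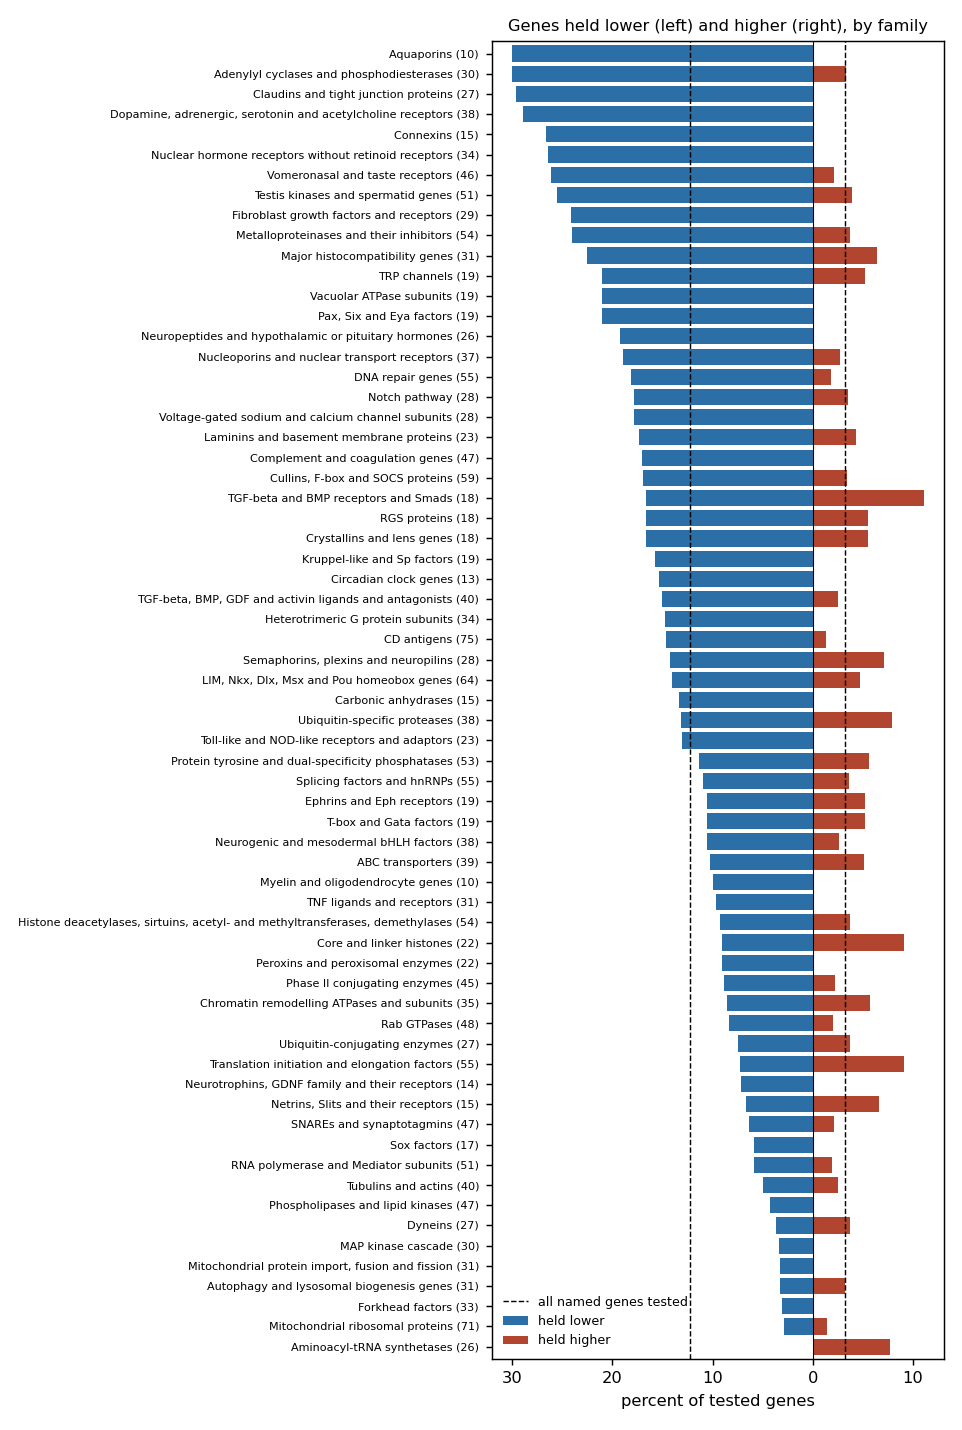
Percent of the tested genes of each of 65 families held lower (left) or higher (right) than the pool in alcohol-fed fetuses, with the number of genes tested in brackets and dashed lines at the shares of all named genes, 12.2% and 3.2%. Aquaporins, cyclases and phosphodiesterases and claudins reach about 30% lower at the top, and mitochondrial ribosomal proteins (2.82%) and aminoacyl-tRNA synthetases (0%) stand at the bottom.

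Markers of 13 cell types and organs, 71 of 85 of them tested, had 3 members held higher and 17 lower. Of all named genes 3.2% were held higher and 12.2% lower. The list medians ran from -1.85 for kidney tubule to 0.71 for placenta and decidua. Kidney tubule had 4 of 5 markers lower, namely Umod, Lrp2, Slc34a1 and Pax2, while Aqp2 stood at 0.92. The median over the list's probes on an array ran from -2.12 to -0.88 over the alcohol-fed arrays and from -2.29 to 0.40 over the pair-fed arrays. Lung epithelium had Sftpc and Nkx2-1 lower of 5, endothelium Tie1 and Emcn lower of 6, and skeletal muscle Acta1 and Myog lower and Myl1 higher of 6. The placental glycoproteins Psg17 and Psg23 were higher and the decidual hormone Prl8a2 lower of 5. Lists with 1 lower marker were erythroid (Slc4a1 of 4, median -1.11), leukocyte (Cd68 of 5, median -0.91) and heart (Tnnt2 of 5, median -0.85). So were astrocyte and radial glia (Aldoc of 6), epidermis (Lor of 5) and intestine (Guca2a of 5). None of 7 hepatocyte and none of 7 neuron markers was held. Their medians on an array ran from -0.64 to 0.77 and from 0.13 to 0.74 over the alcohol-fed arrays, and over the pair-fed arrays from -0.48 to 0.72 and from 0.13 to 1.21. The part of tissue makeup in the ratios was not tested.

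Promoter windows of the genes called were set beside those of all genes. Of the named genes tested, 11501 had a window in the promoter table. Of the 3118 genes with the fewest CpG dinucleotides (0 to 6 per window) 14.7% were held lower and 3.21% higher. In the 2650 with the most (27 to 65) these shares were 10.5% and 3.7%. A GC box was found in 47.9% of windows of genes held lower, 51.9% of those held higher and 52.6% of all. TATAAA was found in 13.2%, 12.5% and 10.8%. The aryl hydrocarbon receptor core GCGTG was in 41%, 45.2% and 43.6%, and the antioxidant element core TGACNNNGC in 13%, 13% and 14%. The cAMP element part TGACGT was in 9.09%, 14.1% and 10.1%. No test was made of these shares.

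The 7 alcohol-fed arrays differed most from each other at a few named probes. Isl1, a homeobox gene of motor neurons, stood at 2.41, -0.34, -2.77, -4.17, 3.05, -5.23 and -7.09 on arrays 1 to 7 (SD 3.86). Its mean of -2.02 ± 1.08 (SE) did not pass (adjusted p = 0.179). The chloride transporter Clcn4 lay between -2.22 and 0.66 on 6 arrays and at -9.90 on array 7, and the ER membrane complex gene Emc7 between -0.74 and 1.47 on 6 arrays and at -8.14 on array 6. The F-box gene Fbxo31 ran from -7.56 to 2.80 and Magee2 from -5.45 to 5.31. Clcn4 and Emc7 thus each had 1 array far from the other 6. Dpf2, a BAF complex subunit, was the only one of the 6 to pass, with values from -8.11 to 1.70, a mean of -3.66 ± 1.03 (SE; adjusted p = 0.0242), and it did not pass with the values as deposited.

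Set directly against the pair-fed arrays, the alcohol-fed arrays showed no called difference. The limma fit of all 14 arrays called 0 of 20876 probes (0%). An unadjusted p under 0.05 was seen for 881 probes, where 1043.8 would be expected with no difference at any probe. Of the 2960 held probes that could be compared, 0 passed and 281 (9.49%) had an unadjusted p under 0.05. Held probes were chosen for alcohol-fed values far from 0, and the same values enter this difference. A raised share is thus built into the choice. The 95% interval of the difference lay within 4-fold either way for 62.7% of these held probes and within 2-fold for 5.84%, with a median half-width of 1.20 on the log2 scale. A 2-fold difference between the diets was thus within the interval for most of them. The 2 groups share the pool, so ratios that both have do not count as 2 observations of it.

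The smallest p of that comparison belonged to Ahrr, which represses signalling by the aryl hydrocarbon receptor. Its alcohol-fed values were -3.61, -7.00, -4.11 and -4.48 on arrays 2, 4, 5 and 6, and the 4 pair-fed values ran from -0.07 to 5.34. The values did not overlap, but the difference of -7.02 ± 1.16 (SE) had an adjusted p of 0.9996. Itga4, an integrin of leukocytes, ran from -2.10 to -0.21 in alcohol-fed and from -5.49 to -1.65 in pair-fed arrays. The polarity gene Pard6g kept to -0.53 to 0.27 in alcohol-fed arrays and ran from -2.95 to -0.46 in pair-fed ones, while its other probe had an alcohol-fed mean of -0.60. The DNA repair nuclease gene Dclre1a ran from -2.91 to -0.26 in alcohol-fed and from -0.60 to 1.22 in pair-fed arrays. Of the other 2, 1700063A18Rik ran from -6.49 to -1.67 against -1.16 to 1.68 and Slc35g3 from -1.54 to -0.56 against -4.21 to -2.25. In none of these 6 did the difference pass the test.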

How the data were processed

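RNA of 14 fetal samples was hybridised in Cy5 beside the ad libitum pool in Cy3, after reverse transcription and labelling with Genisphere's 3DNA kit, per the labels' protocols. The deposited values are log2 ratios, 1 per probe and array. The log base is inferred from the values, whose maximum is the log2 of 100000. The sources used here give no scale, centring, direction, scanner or normalization.

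Values at 0 or at that maximum were set to missing, and array medians were removed. Probes with at least 4 values were tested against 0 with limma 3.58.1 under R 4.3.3 (functions lmFit and eBayes on the 7 alcohol-fed arrays, two-sided, Benjamini-Hochberg adjusted p under 0.05, over all 21147 probes). Held calls also passed in each fit without 1 array, where at least 3 values were required. The difference between groups came from a fit of all 14 arrays. Errors are limma standard errors. The number of arrays limits the precision. Labels tie same-numbered alcohol-fed and pair-fed arrays by number only. Whether such arrays also shared a batch is not known.

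Names come from the platform annotation, checked against RefSeq of GRCm38.p6. A single symbol was given for 16635 probes, more than 1 for 113 and none for 4834. The gene number was found in RefSeq for 15957 probes, and 0 symbols were updated. A family counts a gene under its held direction, and its ratio is the mean of its probes. Genes were named by these rules: the 8 smallest p among held probes on each side with 1 symbol and 7 values; the held member of each family farthest from 0 on each side (fewer were printed); genes with all probes held one way (8) or with probes held oppositely (5); the 6 widest SDs; the 6 smallest p between groups. Promoter windows for the higher side were taken from the first of these rules, leaving out clone names, since no gene met the third. The comparison, the gene lists and the rules were chosen with earlier results of these data known, and 3 family patterns were narrowed after values were seen. The fits were tested on simulated data. Other settings tried were the values as deposited, quantile and scale normalization, placeholders kept, other filters, a robust variance, array weights, a 2-fold threshold, all 14 arrays in 1 fit and each array left out.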

Additional observations from a re-analysis of the deposited data

Results flagged for a closer look

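In groups of up to 7 values, a value was singled out where its gap to the next was large beside the whole range (Dixon's 95% limit). Chance gives this in about 1 of 20 groups that were chosen without regard to their values. Of 161 groups checked, 18 met this, of which 17 were genes. The genes were named for their values on these arrays, Clcn4 and Emc7 for their wide SD. The share flagged thus cannot be set against that rate. Array 6 gave 7 of these 17, and it also had the highest share of placeholders, 7.91%.

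On array 6, Mmp9 stood at -7.43 (next -4.93), Rgs6 at -6.40 (next -3.19), Emc7 at -8.14 (next -0.74), Timeless at -1.91 (next -3.30), Acta1 at -0.38 (next -1.85), Tnfrsf1b, a TNF receptor, at -1.10 (next -1.66) and Igkv4-72 at 0.08 (next 1.28).

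On array 7, 1700101O22Rik stood at 7.77 (next 6.70), Cryba2 at -3.62 (next -4.54) and Clcn4 at -9.90 (next -2.22). On array 1, Car5b stood at -8.00 (next -6.31) and the lipid kinase gene Pik3c2g at 0.51 (next -2.13). On array 4, Vars2 stood at 4.63 (next 2.30) and Tcrb-V8.2 at 3.00 (next 4.87). Gnb1 stood at -4.81 on array 5 (next -2.91), the bHLH factor gene Tcf12 at -0.11 on array 2 (next 1.10) and the peroxisomal enzyme gene Amacr at -3.84 on array 3 (next -2.31). The cause of these single values was not tested.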

How the results depend on the processing

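The counts against the pool moved with 4 choices, and the cause was not tested except where a choice itself removes calls. After quantile normalization 2753 probes were higher and 1126 held higher, against 1641 and 612. With the values as deposited 1511 were held lower, against 2395. A test against a 2-fold change, which asks for more than a difference from 0, called 136 higher and 660 lower, and held 114 higher and 419 lower. Leaving out 1 alcohol-fed array gave 920 to 1359 higher and 2893 to 3605 lower. With scale normalization, placeholders kept, near-zero values missing as well (chosen after seeing the data), other filters on missing values, a robust variance, array weights or all 14 arrays in 1 fit, each of these counts stayed within 1.5 times. The share of higher calls was 30.7%, and was 45.8% as deposited and 45.3% after quantile normalization. Of 157 named probes under 4 settings, and 153 of them with all 14 arrays in 1 fit, 0 called probes changed direction. Dpf2, Itga4 and Slc35g3 no longer passed as deposited, Tbx21, Sp1 and Slc35g3 with placeholders kept, and Adam18, Xpc and Ipo8 with all 14 arrays.

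For alcohol-fed minus pair-fed, the replicate block called 0 probes, with 1032 at an unadjusted p under 0.05, and same-numbered arrays correlated at -0.0963 to 0.234. Every other setting, with each of the 14 arrays left out included, also called 0, with 679 to 1161 at an unadjusted p under 0.05 and a lowest adjusted p of 0.1666. With no difference at any probe, 1043.8 to 1079.1 would be expected under that limit, depending on the number tested.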
